A study of Mus musculus with 29 samples.

Results

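The enzymes of mitochondrial fatty acid beta-oxidation were described here through 10 genes: Acadvl, Acadm, Acadl, Hadha, Hadhb, Etfdh, Decr1, Ech1, Eci1 and Mlycd. They were picked by gene name out of 55292 gene names in the deposited count tables, with earlier results of these data known. Counts of members called, set beside shares of all genes, therefore describe these genes and do not test the set. All 10 were found, and all 10 passed the filter on low counts in every comparison.

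The data come from poly-A RNA sequencing of atria of male mice, in 29 libraries. In the diet experiment, NaV1.5 transgenic mice and Ctrl mice were fed a high-fat diet (HFD) for 4 weeks or a regular diet (RD), giving 5 NaV1.5_HFD, 4 NaV1.5_RD, 4 Ctrl_HFD and 4 Ctrl_RD libraries. A second experiment used only NaV1.5 mice kept on the high-fat diet for 4 weeks, which received nicotinamide riboside (NR, a precursor of NAD) in 7 libraries or vehicle in 5 libraries, with no Ctrl and no regular-diet arm. Treatment started at 5 weeks of age in both experiments. The labels do not give the allele, promoter or number of lines of the NaV1.5 transgene, the composition of either diet, or whether each library is a separate mouse, and the p-values here reflect no more than the spread among these libraries, which may be technical. Ctrl_HFD replicate 4 is labelled batch 2 and all other libraries of the diet experiment batch 1. NR replicates 1 to 5 are labelled batch 2, and NR replicates 6 and 7 and all vehicle libraries batch 3.

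Total counts ranged from 13189995 to 33061018 per library. The 8 markers of atrial cardiomyocytes were detected in every group and summed to at least 26380 CPM (a library's counts scaled to a common total) in every library. An added annotation record named flag had 0 counts in all 29 libraries and does not show the transgene. The 5 NR libraries of batch 2 stood apart: the same 8 markers summed to 26380 to 32518 CPM there, against 58883 to 72347 CPM in the vehicle libraries. Fibroblast markers summed to 3921 to 4598 CPM against 2730 to 3491 CPM, endothelial to 1158 to 1211 against 762 to 874, and erythroid to 2234 to 4948 against 1073 to 1644. Brown adipocyte sums lay below those with vehicle, at 92.5 to 139 against 224 to 312 CPM. Ventricular, white adipocyte, macrophage and smooth muscle sums overlapped.

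Beta-oxidation shortens fatty acyl-CoA in the mitochondrial matrix through repeated rounds of dehydrogenation, hydration, a further dehydrogenation and thiolytic cleavage, and it is the main source of ATP in the adult heart. Acyl-CoA dehydrogenases open each round and hand electrons to the electron transfer flavoprotein, and auxiliary enzymes move or reduce the double bonds of unsaturated chains. Malonyl-CoA blocks the entry of long chains into mitochondria, and its decarboxylase removes that block. Many of these genes are known targets of the nuclear receptor PPAR-alpha, which binds pairs of a short half-site.

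The sequences upstream of Acadvl, Acadm, Ech1 and Mlycd, which fell on different sides of the diet comparison, and the stretch between Hadha and Hadhb show what these start sites look like. They are from RefSeq on build GRCm38.p6, 5′ to 3′ on the strand of the gene, cut at the transcribed span of the gene model in the count files. Capitals mark AGGTCA, the half-site of nuclear receptors, GGGCGG, the GC box, or CCAAT, the CCAAT box, on either strand.

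Acadvl, chr11:70015429-70015678, minus strand: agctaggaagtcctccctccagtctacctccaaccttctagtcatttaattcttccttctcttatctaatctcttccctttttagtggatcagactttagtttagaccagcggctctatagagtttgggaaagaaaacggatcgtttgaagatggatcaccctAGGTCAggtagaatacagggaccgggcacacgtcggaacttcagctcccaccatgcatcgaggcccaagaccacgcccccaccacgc

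Acadm, chr3:153944644-153944893, minus strand: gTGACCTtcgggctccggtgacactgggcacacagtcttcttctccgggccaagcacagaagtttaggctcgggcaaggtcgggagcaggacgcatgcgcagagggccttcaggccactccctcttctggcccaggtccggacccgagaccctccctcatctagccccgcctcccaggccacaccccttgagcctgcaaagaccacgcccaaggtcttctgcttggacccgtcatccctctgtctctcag

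Hadhb, with Hadha starting on the other strand at the far end, chr5:30155163-30155247, plus strand: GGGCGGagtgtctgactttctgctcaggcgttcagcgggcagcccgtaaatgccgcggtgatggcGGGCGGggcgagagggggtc

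Ech1, chr7:28825088-28825216, plus strand: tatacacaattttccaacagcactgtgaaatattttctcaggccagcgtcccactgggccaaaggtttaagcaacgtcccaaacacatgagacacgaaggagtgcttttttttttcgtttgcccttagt

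Mlycd, chr8:119394644-119394877, plus strand: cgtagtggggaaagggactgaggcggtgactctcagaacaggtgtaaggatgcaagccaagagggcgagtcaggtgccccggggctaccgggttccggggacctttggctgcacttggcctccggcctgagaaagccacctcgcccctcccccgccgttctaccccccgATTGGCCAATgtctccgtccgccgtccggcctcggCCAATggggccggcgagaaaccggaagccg

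The 250 bases before the RefSeq start were searched on both strands for 9 members that have a window. The paired half-site, AGGNCA repeated after 1 base, was in 0 of the 9 windows and in 0.338% of 32851 windows of the same length. The half-site AGGTCA, 1 form of the repeated unit of the paired motif, was in 2 of the 9, at -87 on the plus strand in Acadvl and at -249 on the minus strand in Acadm, and in 14.0% of all windows. GGGCGG was in 5 of the 9 (Acadl, Hadha, Hadhb, Ech1 and Eci1) against 32.7% of all windows, and CCAAT in 2 of the 9 (Etfdh and Mlycd) against 33.8%. The printed stretches can be shorter than the searched windows: in Ech1 the GGGCGG matches, at -86 and -31, lie in bases inside the gene model that are not printed. A match describes letters in this window and is not a measured binding site. Hadha and Hadhb lie back to back on chromosome 5, with 85 bases between their gene models.

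Per kilobase of gene model, Acadl and Ech1 were the most abundant members in Ctrl_RD atria. Acadl, the long-chain acyl-CoA dehydrogenase, had 365 ± 35.2 CPM per kb, and Ech1, which isomerises dienoyl-CoA, had 303 ± 40.3 CPM per kb (SD, n = 4 each). The ranges of these top 2 genes overlapped, and both lay above all other members. Acadm, the medium-chain dehydrogenase, followed with 104 ± 14.1 CPM per kb, Acadvl, the very-long-chain dehydrogenase of the inner membrane, with 83.5 ± 6.40, and Hadha, the alpha subunit of the trifunctional protein, with 75.8 ± 2.50 CPM per kb. Acadvl overlapped in range with each of these neighbours. Decr1, the dienoyl-CoA reductase, had 64.2 ± 3.04 CPM per kb, and Eci1, the enoyl-CoA isomerase, 60.7 ± 4.18 CPM per kb, again with overlapping ranges. Mlycd, malonyl-CoA decarboxylase, had 48.0 ± 0.672 CPM per kb. Hadhb is the beta subunit of the trifunctional protein with its thiolase, and Etfdh passes electrons on from the electron transfer flavoprotein to ubiquinone. By this measure they were the lowest members, with 41.6 ± 3.03 and 39.7 ± 2.62 CPM per kb and overlapping ranges. The order depends on gene model length, which was 6595 bases for Hadhb and 7505 for Etfdh, against 2968 for Mlycd and 2127 for Eci1. In CPM without length, Hadhb (274) and Etfdh (298) lay above Mlycd (143) and Eci1 (129). Ranked among 16168 genes, the members stood between place 120 (Acadl) and place 1051 (Etfdh). The levels of Acadvl are uncertain, since 1151 of its exon bases, 42.9%, are shared with Dvl2 on the opposite strand and pairs over both genes were left out; with those bases removed from its length the level was 146 CPM per kb.

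On the high-fat diet, NaV1.5 atria had higher transcript levels of the acyl-CoA dehydrogenase Acadvl, the thiolase subunit Hadhb, the electron carrier Etfdh and the auxiliary enzymes Decr1 and Ech1 than on the regular diet. These 5 of 10 members passed the edgeR test as higher and 0 as lower, where 0.47% of all 16168 genes were called higher, 0.656% lower and 1.13% in either direction. Since the members were chosen with earlier results of these data known, this contrast of shares is a description. The increases lay between 0.38 on the log2 scale for Etfdh (1.30-fold) and 0.59 for Ech1. Together the 10 genes took 0.462 ± 0.0231% of all counts in NaV1.5_HFD (n = 5) and 0.365 ± 0.0130% in NaV1.5_RD (SD, n = 4). The median log2 difference of the 10 was 0.34, and that of all genes tested was -0.01.

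**Figure D1:**
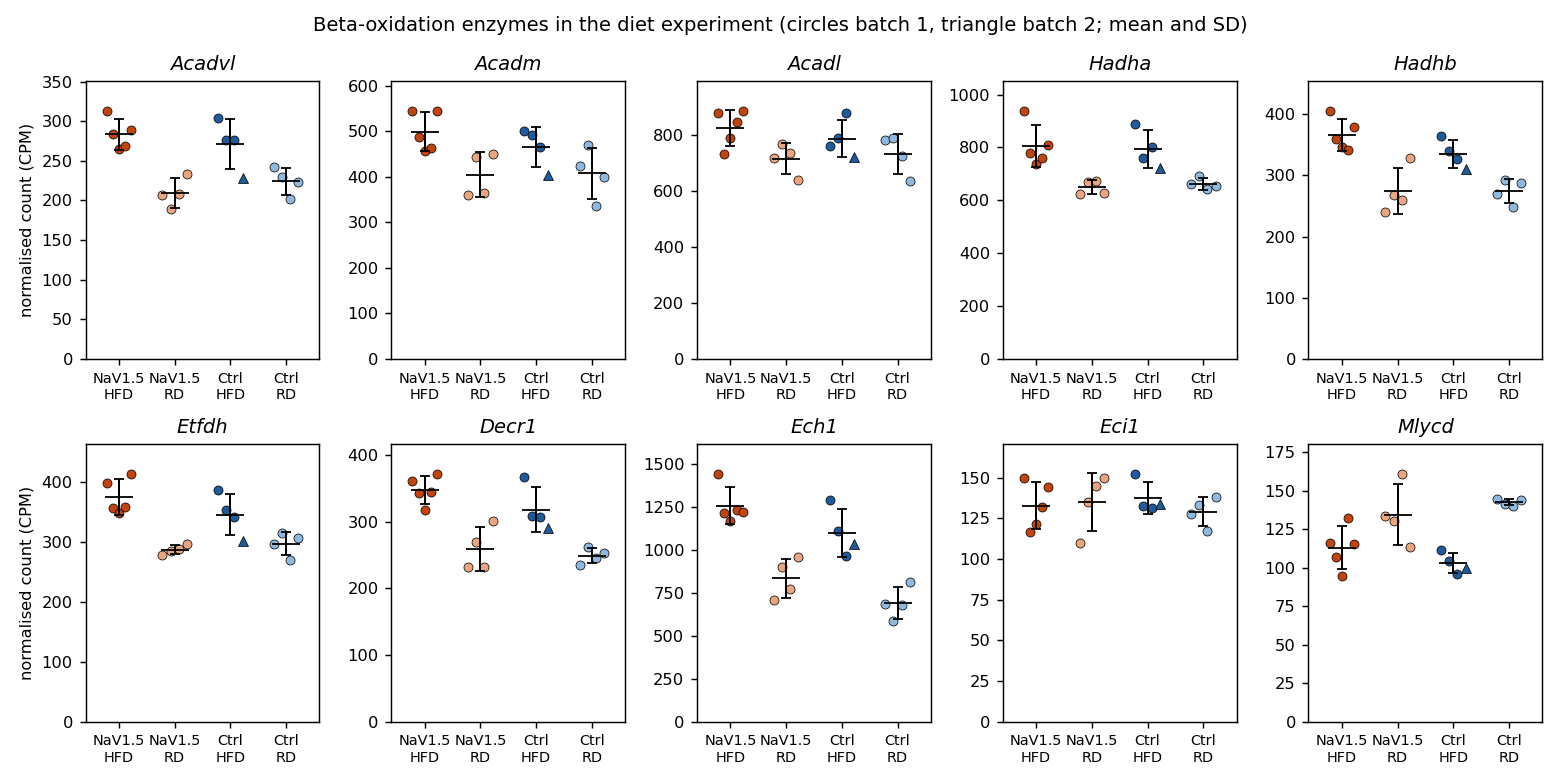
Normalised counts (CPM, linear axes from 0) of the 10 genes in each library of the diet experiment, with the mean and SD of each group; circles are batch 1 and the triangle is Ctrl_HFD replicate 4 of batch 2. Both high-fat groups lie above their regular-diet groups for Hadha, Hadhb, Decr1 and Ech1, while Eci1 overlaps throughout and Mlycd runs the other way.

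Among the dehydrogenases, Acadvl had 313, 283, 264, 268 and 289 CPM in the NaV1.5_HFD libraries, against 207, 189, 208 and 234 CPM in the NaV1.5_RD libraries. Every NaV1.5_HFD library lay above every NaV1.5_RD library, with a log2 difference of 0.43 (SE 0.08, edgeR adjusted p = 0.0225). Acadm averaged 499 ± 42.7 CPM in NaV1.5_HFD (n = 5) and 404 ± 49.1 CPM in NaV1.5_RD (SD, n = 4). Acadl averaged 825 ± 65.1 CPM in NaV1.5_HFD and 715 ± 54.9 CPM in NaV1.5_RD. The ranges of Acadm did not overlap and those of Acadl did, and neither passed the test, at log2 differences of 0.30 (edgeR adjusted p = 0.13) and 0.20 (edgeR adjusted p = 0.25).

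For the trifunctional protein, Hadha had 939, 779, 739, 761 and 808 CPM in NaV1.5_HFD, against 626, 671, 673 and 627 CPM in NaV1.5_RD. The groups did not overlap, yet the log2 difference of 0.30 (SE 0.08) missed the threshold with an edgeR adjusted p of 0.0707. Hadhb had 405, 359.8, 346, 342 and 378 CPM in NaV1.5_HFD, against 240.0, 268, 260.4 and 328 CPM in NaV1.5_RD. The groups did not overlap either, with NaV1.5_RD replicate 4 close to the lowest high-fat library, and Hadhb passed at a log2 difference of 0.41 (SE 0.09, edgeR adjusted p = 0.0374). Etfdh had 399, 357, 348, 359 and 415 CPM in NaV1.5_HFD, against 278, 285, 289 and 297 CPM in NaV1.5_RD. Its regular-diet libraries were tightly grouped below all high-fat ones, with a log2 difference of 0.38 (SE 0.08, edgeR adjusted p = 0.0294).

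Of the auxiliary enzymes for unsaturated chains, Ech1 differed most. Ech1 had 1442, 1215, 1169, 1227 and 1220.5 CPM in NaV1.5_HFD, against 708, 897, 769 and 958 CPM in NaV1.5_RD. The groups were well separated, and the log2 difference was 0.59 (SE 0.12, edgeR adjusted p = 0.0258). Decr1 had 361, 343, 318, 345 and 372 CPM in NaV1.5_HFD, against 233, 269, 232 and 300.5 CPM in NaV1.5_RD. Its ranges also did not overlap, at a log2 difference of 0.42 (SE 0.09, edgeR adjusted p = 0.0318). Eci1, in contrast, averaged 133 ± 14.4 CPM in NaV1.5_HFD (n = 5) and 135 ± 17.8 CPM in NaV1.5_RD (SD, n = 4), a log2 difference of -0.03 (SE 0.10, edgeR adjusted p = 0.91). In all, 7 of 10 members lay higher in every NaV1.5_HFD library than in any NaV1.5_RD library, as did 2.75% of all genes.

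Mlycd was the member with the lowest difference. It had 116, 107, 94.3, 132 and 115 CPM in NaV1.5_HFD, against 133, 130.3, 161 and 113 CPM in NaV1.5_RD. The groups overlapped, and the log2 difference of -0.26 (SE 0.10) did not pass (edgeR adjusted p = 0.17).

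The calls in NaV1.5 atria lay close to the threshold. Without NaV1.5_RD replicate 1, 2 or 3, or without NaV1.5_HFD replicate 2 or 3, 0 of 10 members passed, while without NaV1.5_RD replicate 4 there were 7, 6 higher and Mlycd lower. Without NaV1.5_HFD replicate 5 there were 2, Acadvl and Ech1. The log2 difference of Ech1 lay between 0.52 and 0.66 whichever library was left out. The fits with 0 members called had 4 to 66 calls over all 16168 genes, against 182 with all libraries.

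In Ctrl atria the high-fat diet gave differences of like size, but none passed the test. The count was 0 of 10 members and 0.0% of 16168 genes, and the smallest edgeR adjusted p over all genes was 0.267, which Ech1 shared with other genes. At an unadjusted p under 0.05, 8 of the 10 members stood out, against 8.49% of all genes, and the corresponding figures in NaV1.5 atria were 9 of 10 and 18.9%. DESeq2 called 4 of the members against 0.118% of all genes, and limma-voom called 2 against 0.464%. The median log2 difference of the 10 was 0.29, against -0.0048 for all genes.

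Ech1 had 1288, 1108, 963 and 1033 CPM in Ctrl_HFD, against 685, 587, 681 and 811 CPM in Ctrl_RD. The groups did not overlap, and the log2 difference was 0.69 (SE 0.13). Mlycd had 112, 104, 96.2 and 99.8 CPM in Ctrl_HFD, against 145, 141, 140.4 and 144 CPM in Ctrl_RD. All high-fat libraries lay below all regular-diet ones, with a log2 difference of -0.46 (SE 0.11, edgeR adjusted p = 0.48). Ctrl_HFD replicate 4, the batch 2 library, carries no weight in this fit because the batch term absorbs it, and its Mlycd value lay inside the range of the other 3.

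Decr1 had 367, 308, 307 and 290.3 CPM in Ctrl_HFD, against 235, 263, 246 and 254 CPM in Ctrl_RD, and its ranges did not overlap. Those of Hadha, 722 to 889 CPM in Ctrl_HFD and 642 to 692 CPM in Ctrl_RD, did not overlap either. Hadhb spanned 311 to 365 CPM in Ctrl_HFD and 248 to 292 CPM in Ctrl_RD, also apart. In total 4 members were higher without overlap, against 3.15% of all genes, and 1 was lower, against 2.88%. The ranges of Acadvl and Etfdh overlapped through Ctrl_HFD replicate 4, the lowest high-fat library for both, at log2 differences of 0.35 and 0.27. Acadm, Acadl and Eci1 had log2 differences of 0.25, 0.14 and 0.10, with ranges that overlapped also among batch 1 libraries.

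**Figure D2:**
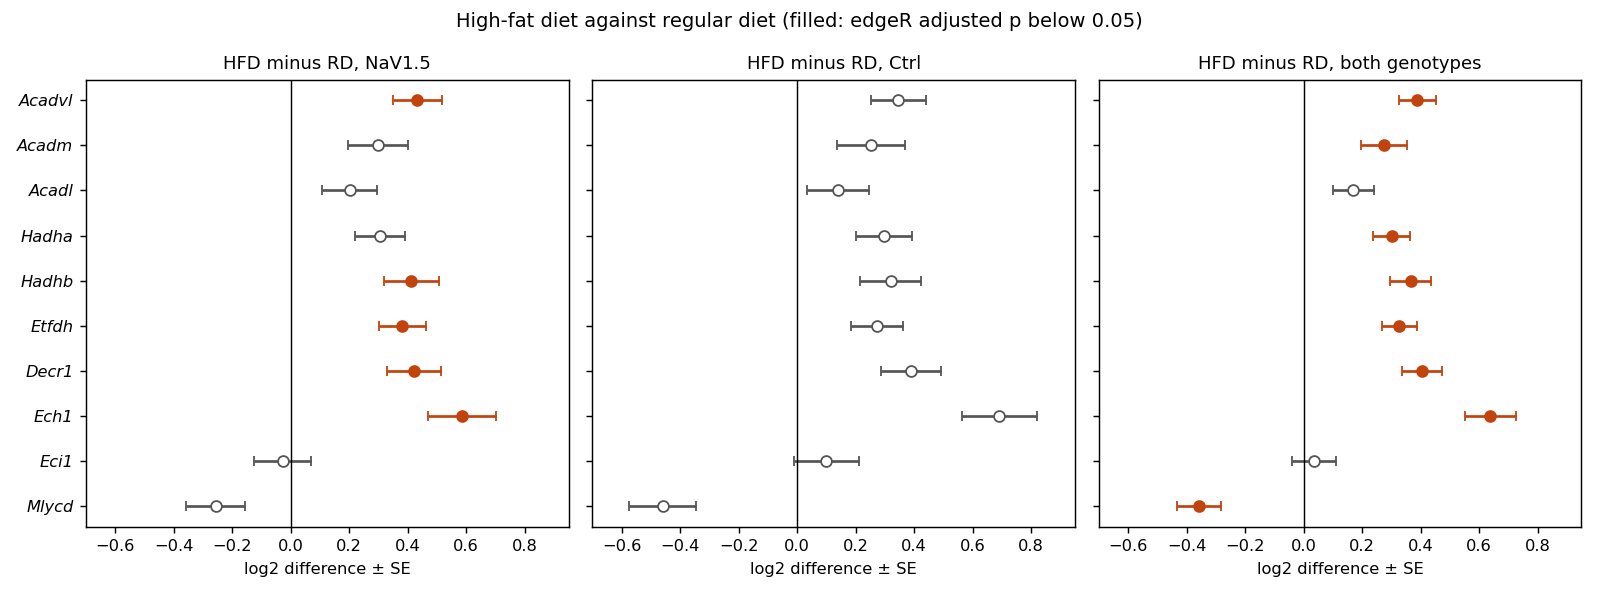
Log2 difference of the high-fat minus the regular diet for each gene, with its SE, in NaV1.5 atria, in Ctrl atria and over both genotypes; filled points passed the edgeR test at an adjusted p below 0.05. In each panel Ech1 is highest and Mlycd lowest, with Ech1 at 0.59, 0.69 and 0.64 and Mlycd at -0.26, -0.46 and -0.36.

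The diet differences of the 2 genotypes were compared in an interaction term, diet difference in NaV1.5 minus that in Ctrl. It called 0 of 10 members and 0.0% of 16168 genes, and 0 members at an unadjusted p under 0.05, where 2.26% of all genes lay. DESeq2 and limma-voom called 0 members too. The log2 interaction ranged between -0.13 (Eci1, SE 0.15) and 0.20 (Mlycd, SE 0.15), and was -0.11 for Ech1 (SE 0.17). With these SEs a difference between genotypes as large as the diet difference of most members could go unseen.

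A diet term averaged over both genotypes, added after the data were seen, called 7 of 10 members higher and 1 lower, where 2.16% of all genes were called higher and 2.78% lower. The fit joins 9 high-fat and 8 regular-diet libraries, of which Ctrl_HFD replicate 4 again carries no weight, and shares them with the comparisons within each genotype. Ech1 rose by 0.64 on the log2 scale (SE 0.09, 1.56-fold, edgeR adjusted p = 0.00145), Decr1 by 0.41 (SE 0.07), Acadvl by 0.39 (SE 0.06), Hadhb by 0.37 (SE 0.07), Etfdh by 0.33 (SE 0.06) and Hadha by 0.30 (SE 0.06). Acadm passed narrowly at 0.27 (SE 0.08, edgeR adjusted p = 0.0473), and was lost on leaving out any of 13 of the 17 libraries in turn. Mlycd fell by 0.36 (SE 0.08, edgeR adjusted p = 0.0163). Acadl, at 0.17 (SE 0.07, edgeR adjusted p = 0.15), and Eci1, at 0.04 (SE 0.07, edgeR adjusted p = 0.81), did not pass.

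Ech1 spanned 963 to 1442 CPM over the 9 high-fat libraries, with a median of 1215, against 587 to 958 CPM with a median of 739 over the 8 regular-diet libraries. Hadha spanned 722 to 939 CPM, with a median of 779, against 626 to 692 CPM with a median of 657. These 2 genes, Ech1 by a margin of a few CPM, were the members whose high-fat libraries all lay above all regular-diet libraries of both genotypes, as 0.26% of all genes did.

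The diet differences of all genes ran with GC content. Over 15890 genes the rank correlation of GC content with the log2 difference was -0.46 in NaV1.5 and -0.49 over both genotypes, a description over genes that share the same libraries. The median log2 difference over both genotypes was 0.12 for genes under 45% GC and -0.15 for those with 55% or more. Hadhb, at 39.1% GC, lies where most genes were higher, and Mlycd, at 59.3%, where most were lower. Acadvl (53.7%) and Ech1 (54.4%) lie on the other side of the trend from their own differences.

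With offsets for GC content and length, the members called in NaV1.5 were 2, Acadvl at 0.53 and Ech1 at 0.70 on the log2 scale, where 0.383% of all genes were called. Hadhb, Etfdh and Decr1 then had 0.24, 0.27 and 0.32 and did not pass. Over both genotypes the same offsets left 5 members called, all higher (Acadvl, Hadha, Etfdh, Decr1 and Ech1), against 1.42% of all genes. Acadm, Hadhb (at 0.21) and Mlycd (at -0.19) were no longer past the threshold.

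**Figure D3:**
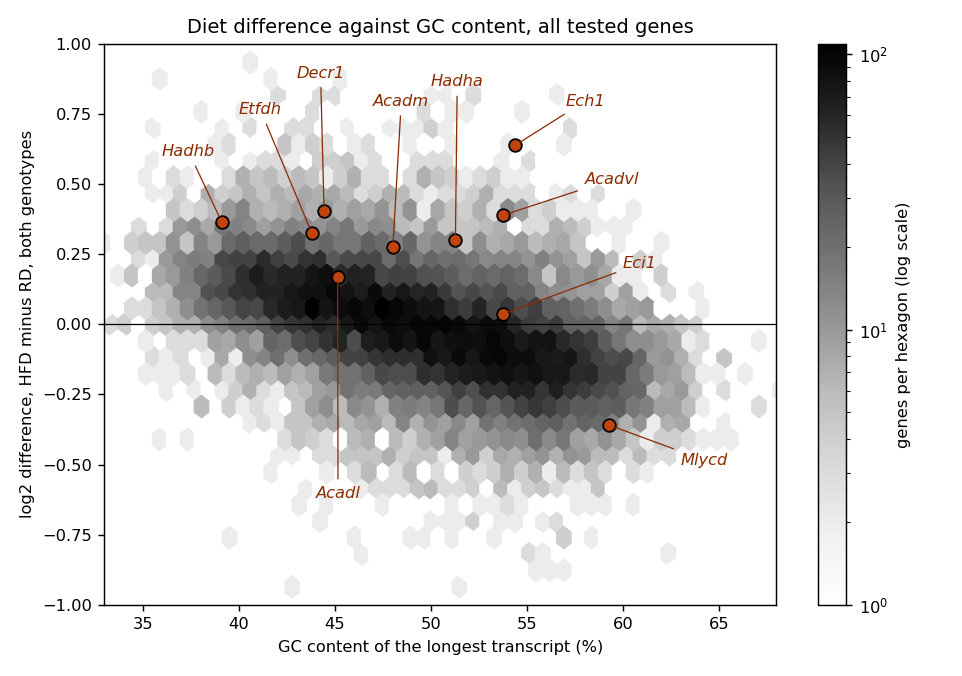
GC content of the longest transcript of each gene (percent, x axis) against its log2 difference of the high-fat minus the regular diet over both genotypes (y axis); hexagons are shaded by the number of genes and the 10 members are marked. The axes hold 15794 genes and leave out 96; Ech1 and Acadvl stand above the bulk of genes of like GC content, and Mlycd lies at its lower side.

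Other measures moved with the diet as well. Mitochondrially encoded genes took 20.4 to 25.3% of counts in NaV1.5_HFD and 18.8 to 20.6% in NaV1.5_RD, and 20.4 to 26.6% in Ctrl_HFD and 18.7 to 21.9% in Ctrl_RD. The 8 atrial cardiomyocyte markers summed to 69035 to 77277 CPM in NaV1.5_HFD and 81249 to 87803 CPM in NaV1.5_RD, so the ranges of the sum did not overlap. In Ctrl the sums were 74358 to 85620.2 CPM with HFD and 85806 to 91365 CPM with RD, also apart. Of the 8 markers only Nppa, atrial natriuretic peptide, passed the test in NaV1.5, as lower (log2 difference -0.44, edgeR adjusted p = 0.0279), and 3 lay above 0 (Ryr2 at 0.22, Actc1 at 0.09 and Sln at 0.04). In Ctrl 0 passed and 5 of 8 lay above 0, with a median of 0.07, and over both genotypes Nppa passed as lower and 4 of 8 lay above 0, with a median of -0.02. In whole tissue, fewer cells of a type and less RNA per cell cannot be told apart. A list of 10 nuclear genes for other mitochondrial proteins summed to 3288 to 4095 CPM in NaV1.5_HFD and 3467 to 3780 CPM in NaV1.5_RD, which overlap. In Ctrl the sums were 3397 to 3856 CPM with HFD and 3476 to 4064 CPM with RD. Of these 10 genes, 1 passed as higher in NaV1.5, where 0.47% of all genes did, and 0 in Ctrl. In each genotype 7 of the 10 lay above 0, with a median log2 difference of 0.04 in NaV1.5 and 0.06 in Ctrl. White adipocyte markers summed to 0.0567 to 10.1 CPM in NaV1.5_HFD and 0.528 to 42.3 CPM in NaV1.5_RD over 6 genes. In Ctrl the sums were 1.31 to 11.2 CPM with HFD and 8.70 to 30.9 CPM with RD. The 5 tested had a median log2 difference of -2.56 in NaV1.5 and -1.71 in Ctrl, with 0 above 0 and 0 passing in either. Over both genotypes 2 of the 5 passed as lower, where 2.78% of all genes did. Brown adipocyte markers summed to 316 to 457 CPM in NaV1.5_HFD and 382 to 474 CPM in NaV1.5_RD over 6 genes. Elovl3 and Otop1 were at 0 in all NaV1.5_HFD libraries, and only 3 of the 6 genes passed the filter. In Ctrl_RD the sum was 373 to 499 CPM with Ucp1, Elovl3 and Otop1 at 0, so the sum alone does not show brown fat. The part of these measures in the enzymes' differences was not tested.

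Few genes of the lists around the pathway passed the test in NaV1.5 atria on the high-fat diet, where 1.13% of all genes did. Of 19 further genes listed as matrix enzymes and tested, 1 was higher and 0 lower. It was Hsdl2, at a log2 difference of 0.42 (edgeR adjusted p = 0.0217). The next by p was Pccb, a subunit of propionyl-CoA carboxylase, at -0.29 without passing. The median log2 difference of these 19 was 0.04, with 10 above 0, against 0.34 for the 10 members. Of 11 genes of fatty acid import into mitochondria, 0 passed; Slc25a20, the carnitine-acylcarnitine translocase, had 0.27 and Cpt1a, the liver form of carnitine palmitoyltransferase, -0.32. Of 14 peroxisomal genes, 0 passed, with Pecr at -0.27 and Acaa1a, the peroxisomal thiolase, at -0.22. Of 8 thioesterases, 0 passed, with Them4 at 0.37 and Acot9 at 0.25. Of 10 genes that set malonyl-CoA levels, 1 was lower, Prkag2, a regulatory subunit of AMP-activated protein kinase, at -0.49 (edgeR adjusted p = 0.0317), with Prkab1, another subunit, at -0.38 without passing.

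Over both genotypes, 2.16% of all genes were called higher and 2.78% lower. Of the 19 further genes listed as matrix enzymes, 2 were higher, Hsdl2 by 0.34 and Acaa2, the mitochondrial medium-chain thiolase, by 0.31 on the log2 scale. Pccb was lower at -0.24. The median of these 19 was 0.05, with 12 above 0, against 0.31 for the 10 members. Of the 11 import genes, Slc25a20 was higher by 0.25 and Cpt1a lower at -0.40. Of the 10 genes that set malonyl-CoA levels, Prkag2 and Prkab1 were lower at -0.45 and -0.39. Of the 14 peroxisomal genes and the 8 thioesterases tested, 0 passed.

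Across the 16 batch 1 libraries of the diet experiment, most of the 10 enzymes varied together. Pearson's r of each with the mean of the other 9 was 0.96 for Etfdh, 0.92 for Hadhb, 0.91 for Hadha, 0.90 for Decr1, 0.88 for Acadm, 0.88 for Acadvl and 0.81 for Ech1. It was lower for Acadl (0.55) and Eci1 (0.44), and negative for Mlycd (-0.63). These values describe libraries that share the diet difference. The correlations were also taken with each group's mean removed. Among the 7 members other than Acadl, Eci1 and Mlycd, r then lay between 0.35 (Acadm with Ech1) and 0.81 (Hadhb with Decr1). Eci1 had r between 0.56 and 0.79 with these 7. Mlycd lay between -0.22 and 0.36 with all 9, and Acadl between -0.46 (Ech1) and 0.34 (Hadha). Whether these r differ from 0 was not tested. The genes most like the members' mean, among 16424, were Slc25a20 (r 0.93), Frmpd3 (0.91), Acaa2 (0.90), Zfp449 (0.90), Xirp2 (0.90) and Calr3 (0.89).

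The NaV1.5 genotype was compared with Ctrl on each diet. On the regular diet 0 of 10 members passed, where 0.0124% of 16168 genes did, and the log2 differences ranged between -0.10 (Acadvl) and 0.27 (Ech1, SE 0.12, edgeR adjusted p = 0.80). On the high-fat diet, where Ctrl_HFD replicate 4 carries no weight, 0 of 10 passed and 0.0866% of all genes did, with differences between -0.06 (Eci1) and 0.17 (Ech1, SE 0.13). At an unadjusted p under 0.05 there was 1 member (Ech1) on the regular diet, against 6.11% of all genes, and 0 on the high-fat diet, against 8.05%. DESeq2 and limma-voom called 0 members in both. For every member the ranges of NaV1.5 and Ctrl libraries overlapped on each diet, while 3.39% of all genes on the regular diet and 3.36% on the high-fat diet had ranges apart.

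Averaged over both diets, which was added after the data were seen, Ech1 stood at 0.22 (SE 0.09, edgeR adjusted p = 0.33) and 0 of 10 members passed, where 0.452% of all genes did. Ech1 was also the 1 member with an unadjusted p under 0.05, where 11.4% of all genes lay, and DESeq2 and limma-voom called 0. All other members lay between -0.05 and 0.07.

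**Figure D4:**
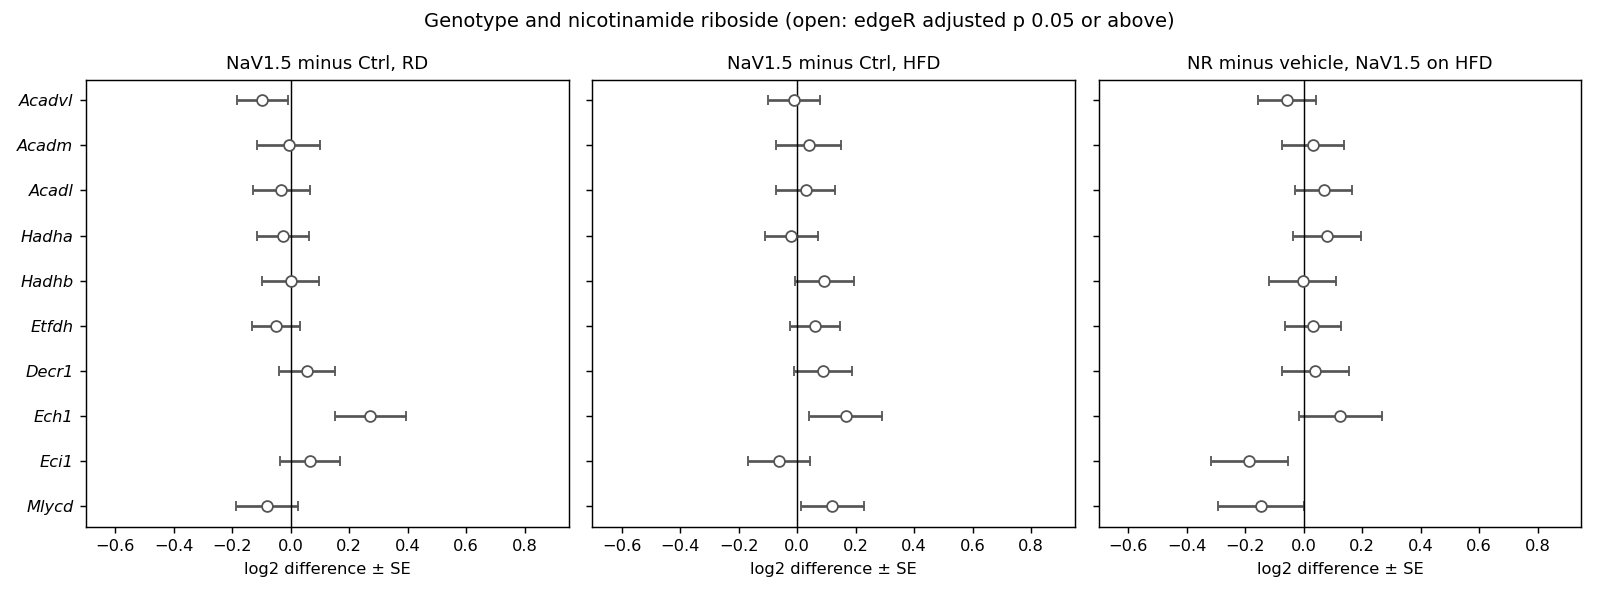
Log2 difference of each gene with its SE for NaV1.5 minus Ctrl on the regular diet, NaV1.5 minus Ctrl on the high-fat diet, and NR minus vehicle in NaV1.5 atria on the high-fat diet; open points did not pass the edgeR test. All 30 points lie between -0.19 and 0.27.

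Nicotinamide riboside was compared with vehicle in NaV1.5 atria on the high-fat diet, and 0 of 10 members passed, where 0.425% of 16482 genes did. At an unadjusted p under 0.05 there were 0 members too, against 11.1% of all genes, and DESeq2 and limma-voom also called 0. Because batch is a term and all vehicle libraries are batch 3, this contrast rests on NR replicates 6 and 7 against the 5 vehicle libraries. The log2 differences ranged between -0.19 (Eci1, SE 0.13) and 0.13 (Ech1, SE 0.14), with a median of 0.03. With SEs between 0.10 (Acadl) and 0.15 (Mlycd), differences of the size seen between diets for most members could go unseen here.

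Hadha had 751 and 799 CPM in the NR libraries of batch 3, against 942, 690.2, 745, 628 and 712 CPM in the vehicle libraries. Ech1 had 744 and 801 CPM in the NR libraries of batch 3, against 847, 691, 835, 537 and 683 CPM in the vehicle libraries. The NR values lay inside the vehicle range for both genes, and for all 10 members the ranges overlapped, while 14.0% of all genes had ranges apart.

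The 5 NR libraries of batch 2 were far lower for most members. Hadha had 296, 273, 287, 282 and 307 CPM in them, Acadl 331, 322, 307, 288 and 363 CPM, and Ech1 541, 456, 570.0, 562 and 502 CPM. For 8 of 10 members all batch 2 libraries lay below all vehicle libraries, as did 22.5% of all genes, and Ech1 and Eci1 were the exceptions, with some overlap. No vehicle library is in batch 2, so batch and treatment cannot be told apart there. A further 10-gene list of other mitochondrial proteins summed to 1652 to 1939 CPM in the NR libraries of batch 2, against 3387 to 3994 CPM with vehicle.

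**Figure D5:**
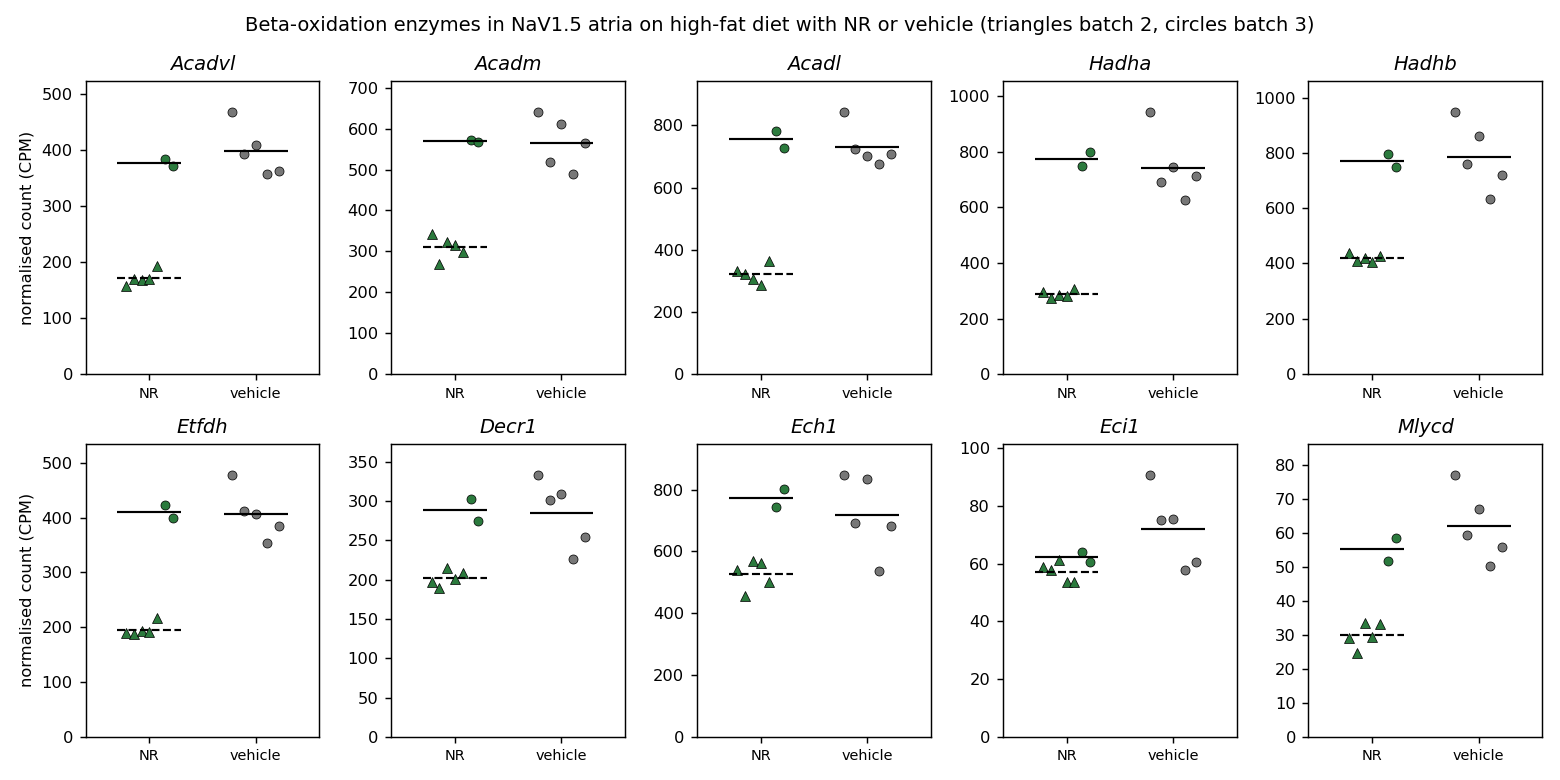
Normalised counts (CPM, linear axes from 0) of the 10 genes in each NR and vehicle library of NaV1.5 mice on the high-fat diet; triangles are batch 2 with their mean dashed, and circles are batch 3 with their mean as a solid line. The 2 NR libraries of batch 3 lie among the vehicle libraries, and the 5 of batch 2 lie lower, for Hadha at 273 to 307 CPM.

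The ratio of the transcripts of the 2 trifunctional protein subunits also differed between the experiments. The ratio of Hadha to Hadhb, both in CPM, averaged 2.19 ± 0.0766 in NaV1.5_HFD of the diet experiment (n = 5) and 0.950 ± 0.0611 in the vehicle group (SD, n = 5), which share genotype and diet but not batch. The ranges were 2.13 to 2.32 and 0.863 to 0.996. Experiment, batch and vehicle cannot be told apart between these groups. Within the diet experiment the ratio averaged 2.40 ± 0.331 in NaV1.5_RD, 2.36 ± 0.101 in Ctrl_HFD and 2.42 ± 0.133 in Ctrl_RD (SD, n = 4 each), so the diet groups overlapped. In the NR libraries it averaged 0.688 ± 0.0201 in batch 2 (n = 5) and 1.01 ± 0.0878 in batch 3 (SD, n = 2). Ctrl_HFD replicate 4, also labelled batch 2, had a ratio inside the range of the other Ctrl_HFD libraries, 2.24 to 2.45.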

How the data were processed

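The deposited tables hold unnormalized counts, by gene name, in 29 libraries. Per the file headers, the authors counted read pairs with featureCounts 2.0.1 without regard to strand, leaving out pairs that hit several places or cover more than 1 gene, so genes that overlap or have near-identical copies are uncertain. The submitters' processing notes name FastQC 0.11.7, STAR 2.7.6a and the builds GRCm38 and mm10.

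Differences were tested in edgeR 4.0.16 under R 4.3.3 (quasi-likelihood, filterByExpr, TMM). Tests were 2-sided, with p-values adjusted by Benjamini-Hochberg across the whole filtered table and called below 0.05. The 4 diet groups shared a fit, and NR and vehicle shared another, with batch beside group in both. The SE is the size of the log2 difference over the square root of F. CPM were scaled by TMM over all 29 libraries. The fits were tested on simulated data, and 0 pairs of files were identical.

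The members and lists were chosen with earlier results of these data known. From each other list the text names genes that passed and the 2 of smallest p, and the 6 genes most like the members were ranked by Pearson's r. GC content is that of the longest GENCODE transcript, which 96.4% of gene names have. Alternatives were RLE scaling, no filter, a filter at 1 CPM, no batch term, DESeq2 1.42.0, limma 3.58.1 with voom, GC and length offsets, libraries of some batches alone, all libraries together, a replicate block, and each library left out in turn. A check of the genotype labels by transcript level is not reported here.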

Additional observations from a re-analysis of the deposited data

Results flagged for a closer look

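In 3 of 60 combinations of a member and a group, the highest library lay far from the others by Dixon's criterion, which chance meets in about 1 of 20 groups. Acadl had 842 CPM in NaV1.5_HFD_vehicle replicate 1, against 675 to 723 CPM in the other vehicle libraries. Ech1 had 1442 CPM in NaV1.5_HFD replicate 1, against 1169 to 1227 CPM in the other NaV1.5_HFD libraries, and without that library its diet difference was 0.53 on the log2 scale (edgeR adjusted p = 0.0410). Eci1 had 153 CPM in Ctrl_HFD replicate 1, against 131 to 134 CPM in the other Ctrl_HFD libraries.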

How the results depend on the processing

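Replicate numbers were not used to pair the samples in the main fits. Deviations of same-numbered libraries correlated at -0.09 to 0.20, and in no comparison was every pair above 0.1. With 2 to 5 pairs per comparison, these values cannot settle whether the numbers pair the samples. Fits of the diet experiment with the replicate number as a block also left out NaV1.5_RD replicate 4 and Ctrl_RD replicate 1, whose titles hold no number. There the members called for the diet in NaV1.5 were 0, against 5 in the main fit. The block and the change of libraries cannot be told apart in these fits. Other settings gave 8 members under limma-voom and 2 under GC and length offsets, and 0 to 7 on leaving out each library. For the diet in Ctrl, 0 were called, and 1 with no filter, 4 under DESeq2 and 2 under limma-voom. Over both genotypes 8 were called, 5 under the offsets, 6 with the replicate block and 6 to 8 on leaving out each library. For NR, 0 were called, 2 with no batch term, 10 for NR of batch 2 against vehicle, and 10 with the replicate block and no batch term, a setting chosen after seeing the data because the block with batch could not be fitted. In the last 2 settings the sign turned for 6 members, all lower: Acadm at -0.88 and -0.86, Acadl at -1.19 and -1.18, Hadha at -1.38 and -1.35, Etfdh at -1.07 and -1.06, Decr1 at -0.51 and -0.49, and Ech1 at -0.46 and -0.44. In those settings batch differs with the treatment by construction.

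Counts over all genes moved as well. For the diet in NaV1.5, 182 genes became 849 under DESeq2, 1950 under limma-voom, 62 under the offsets, 732 with all 29 libraries and 27 with the block, and 4 to 1138 on leaving out each library. For the diet in Ctrl, 0 became 5 with no filter, 1 with no batch term, 19 under DESeq2 and 75 under limma-voom. For genotype on the regular diet, 2 became 10 with no filter, 3 with no batch term, 27 under DESeq2, 15 under limma-voom, 4 under the offsets, 3 with all libraries and 1 with the block, and on the high-fat diet 14 became 43, 31, 90, 124, 10, 9 and 8 in the same order. Over both genotypes, 800 became 1617 under DESeq2, 3898 under limma-voom, 230 under the offsets, 1546 with all libraries and 305 with the block. For genotype over both diets, 73 became 138 with no filter, 280 under DESeq2, 523 under limma-voom, 127 under the offsets and 36 with the block. For NR, 70 became 140 with no filter, 4392 with no batch term, 254 under DESeq2, 11 under the offsets, 18 with batch 3 alone, 9851 for batch 2 against vehicle, 27 with all libraries and 9694 with the block. On leaving out each library the counts were 1 to 5 and 2 to 14 for genotype on the regular and the high-fat diet, 173 to 2202 for the diet over both genotypes, 40 to 129 for genotype over both diets and 1 to 66 for NR. The cause of these differences was not tested.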
